A study of Mus musculus with 9 samples.

Results

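The miRNAs described here are the 5p arms of a run of mouse hairpins that carry consecutive numbers, miR-6896 to miR-7094, taken by their names as listed (the number, then -5p, with no letter between them). By that rule 196 of the 1978 mature miRNAs listed were members, out of 199 numbers in the range. For miR-6973, miR-7036 and miR-7094 no 5p arm of that plain name was listed. The members come from 196 miRNA genes on 20 chromosomes. All had a UMI in every library except miR-6901-5p, which had 0 of 980407 UMIs in LV-NC replicate 1 (a count of 0 allows up to 3.06 CPM there, at 3 counts). Because 5 members were too rare to pass the filter on low counts (miR-6928-5p, miR-6964-5p, miR-7053-5p, miR-7064-5p and miR-7065-5p, with means of 4.03 to 6.59 CPM), 191 were tested.

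The RNA came from exosomes that TCMK-1 cells released into their medium. TCMK-1 is an established mouse kidney tubular epithelial line, labelled C3H, and all 3 groups were infected with a lentivirus at a multiplicity of infection of 100. H/R-LV-BMAL1 cells carried the vector that expresses Flag-tagged BMAL1 (a transcription factor of the circadian clock) from a CMV promoter and went through hypoxia and reoxygenation (H/R), which was 24 h in 1% O2 followed by 12 h in 21% O2. H/R-LV-NC cells carried the empty vector and went through the same H/R. LV-NC cells carried the empty vector and were kept in normal culture. There were 3 libraries in each group, and no LV-BMAL1 group without H/R. Separate cultures are not stated for the replicates, so the p-values cover the spread among these libraries and no more, and that spread may be technical. The table holds miRNAs, so the level of BMAL1 itself was not analysed here.

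Animal miRNAs are usually cut from a long primary transcript by Drosha and then from the hairpin by Dicer, and the base-paired seed near the 5′ end chooses the targets. A mirtron goes around Drosha, because splicing frees an intron that is itself the hairpin. In a tailed mirtron one end of the hairpin is made by the splice site while the other end is trimmed from a longer intron. When the shared end is the acceptor, the 3p arm contains the pyrimidine tract and the final AG of the intron, and the 5p arm that pairs with it is rich in purines.

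RefSeq (GRCm38.p6) gave a mature sequence for 172 of the 196 members, at the deposited position in all 172. The sequences below are printed 5′ to 3′ with the seed (bases 2 to 8) in capitals. The first pair are the members called in the comparisons, the next 3 are the most abundant members that were matched, and the others are members that reached high counts in 1 library, except miR-7018-5p, which shows the GU of a splice donor at its start.
miR-7021-5p: aUAGGAGUugauuacagagcaa
miR-6945-5p: uCCUGGGAggggcagccccugg
miR-6898-5p: uGUAAGGGgagaugcagggagc
miR-7044-5p: gUGUGGUGgugguggcggc
miR-7008-5p: uGUGGGAGaugccaggagccguac
miR-7024-5p: uUGGGGGAuggguugcuuggc
miR-6926-5p: uCAGUGGGgugagggaugguga
miR-6963-5p: gGUGGGAUggauggcagaaccugg
miR-6947-5p: cAUCCAGUggagaggcucgug
miR-6956-5p: uGAGUGGGugggacuggccu
miR-7035-5p: gGCUGGGAgaguggcucagaa
miR-6977-5p: gUGAGGCGcugugggcacggcuugg
miR-7018-5p: gUGAGCAGacagggaguggugggg
Runs of G recur in these sequences. The trinucleotide GGG was in 129 of the 172 members (75.0%), against 28.3% of 1334 matched miRNAs outside the numbered hairpins and 30.1% of the 5p arms among those. Over all members G made up 44.1% of the bases and C 14.5%, against 27.3% and 23.6% outside. miR-7021-5p departs from this, with a GC content of 36.4% and no GGG, whereas miR-6945-5p had 77.3% GC. The median length was 22 nt (18 to 26 nt).

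The 3p arms of the same hairpins had the reverse composition. They were 71.8% C and U, against 32.9% in the members, and 136 of 173 ended in AG (78.6%), against 11.2% of 3p arms outside the numbered hairpins. A pair of partners with that ending is printed with the final AG in capitals.
miR-7021-3p: ucucugugcuucugcuccuuAG
miR-7018-3p: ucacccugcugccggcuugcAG

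The label of mirtron-like miRNAs was checked against gene structure in GENCODE M21 (GRCm38). For 195 of the 196 members (99.5%), the mature sequence lay in a same-strand intron of an annotated gene other than a miRNA gene. That held for 54.1% of 1572 positioned miRNAs outside the numbered hairpins. The hairpin's 3′ end fell on the last base of that intron for 181 members (92.4%), against 3.05% outside. The 5′ end fell on the first base of the intron in 17 members, of which 14 had both ends at splice sites and so filled a whole intron of 67 to 137 nt. Thus 167 members had the acceptor end alone, 3 the donor end alone and 11 neither end, and miR-7025-5p was in no intron. In the hairpin sequences themselves, 157 of 168 ended in AG (93.5%), against 8.96% outside, while 14.9% began with GU, against 6.01%. The hairpin ends are those of the annotation and were not measured. They were matched exactly, in the shortest intron that held the mature sequence, so a hairpin off by a base did not match. By this rule the members are mostly hairpins at the acceptor end of a longer intron, and conventional whole-intron mirtrons are few among them. Of the 167 with the acceptor end alone, 42 were in introns of 150 nt or less, and a looser match was not tried. The introns had a median of 479 nt, and 61 were of 150 nt or less. The shortest, of 66 nt, held miR-6936-5p in Sirt7, and the longest, of 36269 nt, held miR-6899-5p in Klf7. In 26 members the mature sequence also lay within an exon of another transcript.

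**Figure D1:**
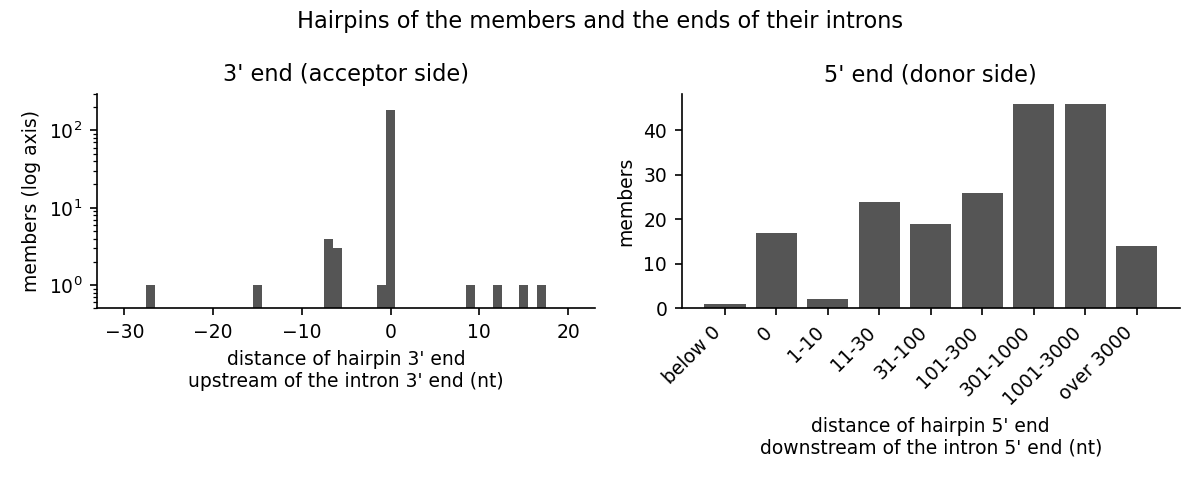
Distance of each member's hairpin from the ends of its intron, in nucleotides, for 195 members. Left, the hairpin 3′ end counted upstream of the intron's last base (log axis of members), where 181 members stand at 0; right, the hairpin 5′ end counted downstream of the intron's first base in distance classes, where 17 stand at 0.

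The libraries differed in depth, with 3357851 to 4057046 miRNA UMIs in H/R-LV-BMAL1, 807158 to 1447040 in H/R-LV-NC, against 977490 to 1147768 in LV-NC. Replicate 1 of H/R-LV-BMAL1 stood apart, with an SD of log2 deviations from its group mean of 0.74 over all miRNAs tested, against 0.42 to 0.54 in the other 8 libraries. Tubule miRNAs (9 of 9 with UMIs in every library) summed to 24260 to 28080 CPM in H/R-LV-BMAL1, 19950 to 22240 in H/R-LV-NC, against 17750 to 25070 in LV-NC. Those of blood cells and macrophages (6 of 7 in every library) summed to 229 to 266 CPM in H/R-LV-BMAL1, 433 to 545 in H/R-LV-NC, against 393 to 494 in LV-NC. The neuronal pair of miR-124-3p and miR-9-5p ran from 151 to 2720 CPM in H/R-LV-BMAL1, 16.4 to 338 in H/R-LV-NC, against 11.2 to 19.2 in LV-NC, and the liver miRNA miR-122-5p from 54.5 to 176 CPM over the 9 libraries. These marker levels are UMIs scaled to each library's total and not by TMM (the trimmed mean of M values), used for most levels below. The TMM factors, which divide the CPM, were 0.558 to 0.940 in H/R-LV-BMAL1 and 1.05 to 1.72 in H/R-LV-NC. TMM would thus raise the marker levels of H/R-LV-BMAL1 and lower those of H/R-LV-NC, so the differences between these groups depend on the scaling. The part of these markers in the results was not tested. In bulk RNA, fewer vesicles or cells of a type and less RNA in each cannot be told apart.

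Most members were rare. Their mean level, in CPM scaled by TMM (the trimmed mean of M values), had a median of 21.1 over the 196 members, with quartiles of 13.0 and 43.1, beside 17.8 over all 1978 miRNAs. A median member had 59, 45 and 34.5 UMIs in the H/R-LV-BMAL1 libraries, 28, 32 and 39.5 in H/R-LV-NC, against 19, 21 and 21 in LV-NC. At these counts many members carry a large counting error, and 68 had a mean of at least 50 UMIs. In all, 19 members averaged 100 CPM or more.

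miR-6898-5p stood far above the rest, at a mean of 4808 CPM over the 9 libraries (GRCm38 chr1:36348732-36348753, minus strand). It lies in a 136-nt intron of Kansl3, which encodes a subunit of the NSL histone acetyltransferase complex. In CPM scaled by TMM it had 2180, 3593 and 6778 in H/R-LV-BMAL1, 3958, 3431 and 4210 in H/R-LV-NC, against 6418, 6759 and 5943 in LV-NC. Every LV-NC library was above every H/R-LV-NC library, whereas the H/R-LV-BMAL1 libraries spread over more than the range of both other groups. The log2 fold change of H/R-LV-NC over LV-NC was -0.72 ± 0.36 (SE), with an adjusted p of 0.645 (edgeR's quasi-likelihood test, n = 3 each), and no comparison of this miRNA was called with TMM.

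The next members were an order of magnitude lower. miR-7044-5p, in an intron of Rasgef1a with neither hairpin end at a splice site, averaged 429 CPM. It had 221, 341 and 489 CPM in H/R-LV-BMAL1, 467, 354 and 370 in H/R-LV-NC, against 531, 557 and 533 in LV-NC, so that the LV-NC libraries were the highest. miR-7008-5p, from an intron of Prkci (atypical protein kinase C iota), averaged 329 CPM, with 311 ± 147 in H/R-LV-BMAL1, 287 ± 14.7 in H/R-LV-NC, against 388 ± 45.3 in LV-NC (SD, n = 3 each). miR-7044-5p and miR-7008-5p were not called in any comparison with TMM.
The others of the 10 highest were miR-7024-5p (285 CPM, Nelfa), miR-6981-5p (230, Arap3), miR-6927-5p (223, Mllt6), miR-6947-5p (162, Actr8), miR-7002-5p (150.5, Aqr), miR-6906-5p (148.5, Spock2) and miR-7051-5p (130, Etfb). For 4 of these, the mean rests largely on H/R-LV-BMAL1 replicate 1: miR-7024-5p, miR-6947-5p, miR-7002-5p and miR-7051-5p took 86.4%, 64.7%, 48.7% and 55.4% of their summed CPM from it.

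Summed over all members, the share of miRNA UMIs was 1.51%, 0.702% and 0.708% in H/R-LV-BMAL1, 1.11%, 2.11% and 1.43% in H/R-LV-NC, against 1.39%, 1.40% and 1.39% in LV-NC. The means were 0.973% ± 0.465 in H/R-LV-BMAL1, 1.55% ± 0.510 in H/R-LV-NC, against 1.39% ± 0.00529 in LV-NC (SD, n = 3 each), and the 95% Wilson limits of a single library lay at most 0.0313 percentage points from its share, which covers counting error only. The LV-NC libraries were nearly alike, and the H/R groups each held 1 library far above the others of its group, so that the groups overlapped. A single miRNA, miR-6898-5p, made 13.6% to 53.4% of the member UMIs in H/R-LV-BMAL1, 27.9% to 37.6% in H/R-LV-NC, against 45.7% to 50.1% in LV-NC. Its own share of all UMIs did not overlap between the groups, at 0.205%, 0.264% and 0.378% in H/R-LV-BMAL1, 0.416%, 0.587% and 0.528% in H/R-LV-NC, against 0.660%, 0.700% and 0.635% in LV-NC. These shares are not scaled by TMM, and with TMM the H/R-LV-BMAL1 libraries overlapped both other groups, as given above. With total UMIs, edgeR called 28.6% of all tested miRNAs lower in H/R-LV-BMAL1 over H/R-LV-NC, so a lower share was common there. The other 195 members held 1.31%, 0.438% and 0.330% in H/R-LV-BMAL1, 0.689%, 1.52% and 0.907% in H/R-LV-NC, against 0.730%, 0.699% and 0.754% in LV-NC.

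**Figure D2:**
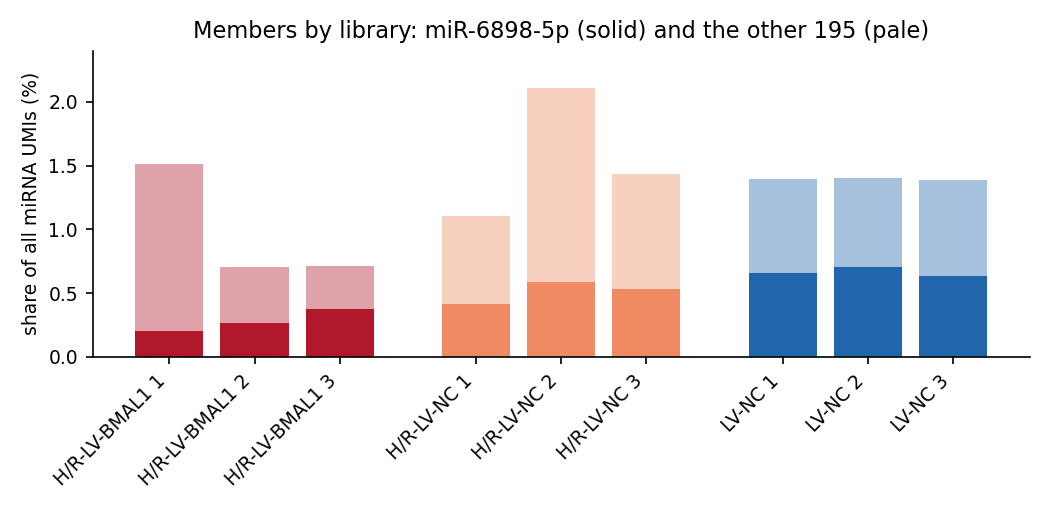
Share of all miRNA UMIs (percent, from 0) that the members took in each of the 9 libraries, with miR-6898-5p as the solid part of the bar and the other 195 members as the pale part. The solid part is smallest in the 3 H/R-LV-BMAL1 libraries (0.205% to 0.378%, not scaled by TMM), and the pale part is largest in H/R-LV-BMAL1 replicate 1 and H/R-LV-NC replicate 2.

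The first comparison, H/R-LV-BMAL1 over H/R-LV-NC, asks how the BMAL1 vector changed exosomal miRNAs under H/R. Among 191 members tested, 2 were called higher (adjusted p under 0.05 over all 1682 miRNAs), where 2.14% of all tested miRNAs were called higher, and 0 were called lower, where 0.238% were. At an unadjusted p under 0.05, 13 members were higher, beside 14.3% of all tested, and 29 were lower, beside 13.6%. The 2 called members make 1.05% of those tested, which does not exceed the background. Over all miRNAs, 13 of 18 alternatives left 0 calls in this comparison, higher or lower.

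miR-7021-5p was one of them. It lies at chr4:143136136-143136157 on the minus strand, at the acceptor end of a 6024-nt intron of Prdm2, a histone methyltransferase gene of the PR-domain family. It had 340, 272 and 166 UMIs in H/R-LV-BMAL1, 54, 37 and 45 in H/R-LV-NC, against 16, 18 and 21 in LV-NC. Scaled by TMM these were 108, 102 and 73.3 CPM in H/R-LV-BMAL1, 38.3, 26.8 and 24.8 CPM in H/R-LV-NC, against 15.9, 17.8 and 17.1 CPM in LV-NC. None of the 3 groups overlapped, and the LV-NC libraries were within 2 CPM of each other. Over H/R-LV-NC the log2 fold change in H/R-LV-BMAL1 was 1.66 ± 0.32 (SE; edgeR's adjusted p = 0.0455).

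miR-6945-5p was the other, at chr13:55507667-55507688 on the minus strand. It sits at the acceptor end of a 239-nt intron of Pdlim7, which encodes an actin-associated PDZ and LIM domain protein, and it also lies within an exon of another transcript. It had 324, 187 and 149 UMIs in H/R-LV-BMAL1, 29, 42 and 48 in H/R-LV-NC, against 24, 18 and 20 in LV-NC. Scaled by TMM these were 103, 70.4 and 65.8 CPM in H/R-LV-BMAL1, 20.6, 30.4 and 26.5 CPM in H/R-LV-NC, against 23.8, 17.8 and 16.3 CPM in LV-NC. Every H/R-LV-BMAL1 library was above every library of the other groups, while H/R-LV-NC and LV-NC overlapped. The log2 fold change over H/R-LV-NC was 1.62 ± 0.33 (SE; edgeR's adjusted p = 0.0455).

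Both calls depended on the settings. Each was kept under 4 of 18 alternatives (DESeq2, limma-voom, a mean of at least 50 UMIs, and leaving out H/R-LV-BMAL1 replicate 1) and lost under the other 14, with adjusted p over the alternatives of 2.35e-05 to 0.140 for miR-7021-5p and 4.16e-05 to 0.180 for miR-6945-5p. Among those that ended the calls was the removal of any one of the other 8 libraries. The 3p arms of these hairpins were not called: miR-7021-3p, at a mean of 12.9 CPM, had a log2 fold change of 0.36 (edgeR's adjusted p = 0.610), and miR-6945-3p, at 53.1 CPM, had -0.11 (adjusted p = 0.874).

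**Figure D3:**
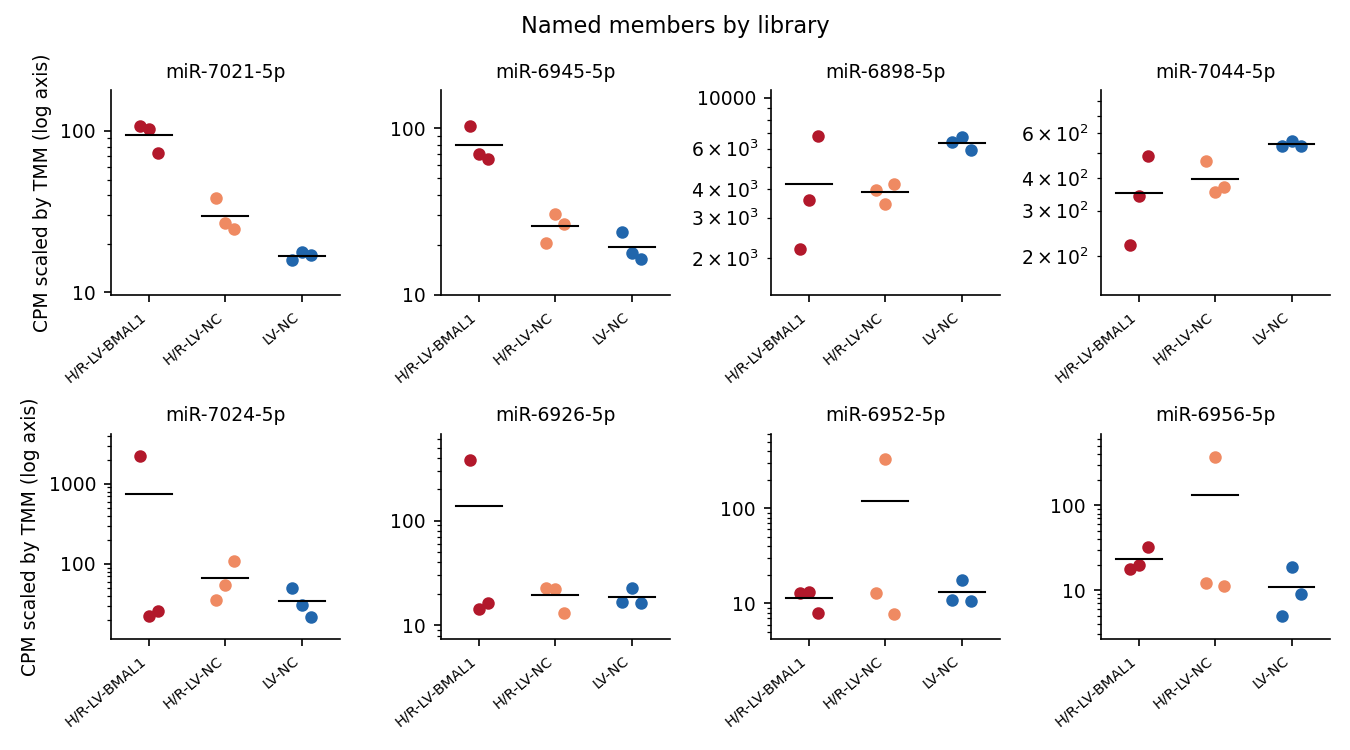
CPM scaled by TMM (log axis, set for each panel) of 8 members in the 3 libraries of H/R-LV-BMAL1, H/R-LV-NC and LV-NC, left to right; points are libraries and lines are group means. The 3 H/R-LV-BMAL1 points of miR-7021-5p (73.3 to 108) and miR-6945-5p (65.8 to 103) stand above all others, while the group means of the bottom 4 miRNAs are carried by 1 library each.

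The third comparison, H/R-LV-BMAL1 over LV-NC, differs from the first in its baseline and shares the H/R-LV-BMAL1 libraries with it, so that its calls are not separate evidence. Again 2 members were called higher, where 0.178% of all tested miRNAs (3 of 1682) were called higher, and 0 were called lower, where 0.0595% were. These were the same pair: miR-7021-5p had a log2 fold change of 2.48 ± 0.34 (edgeR's adjusted p = 0.0113) and miR-6945-5p one of 2.05 ± 0.35 (adjusted p = 0.0386). The members thus made up 2 of the 3 miRNAs called higher. The call of miR-7021-5p was kept under 13 of 18 alternatives and that of miR-6945-5p under 6, and both were lost when any 1 of the LV-NC libraries, or H/R-LV-BMAL1 replicate 2, was left out. At an unadjusted p under 0.05, 12 members were higher, beside 13.3% of all tested, and 19 were lower, beside 10.1%.
Among members with a mean of at least 50 UMIs, the lowest was miR-6977-5p at -2.60 ± 0.86 (edgeR's adjusted p = 0.124), followed by miR-7018-5p at -1.38 ± 0.37 (0.0798) and miR-7071-5p at -1.32 ± 0.53 (0.174). miR-7018-5p fills an 85-nt intron of Hspg2, the perlecan gene. It had 19.4, 32.4 and 25.2 CPM in H/R-LV-BMAL1, 44.7, 41.3 and 68.9 in H/R-LV-NC, against 51.6, 59.3 and 88.9 in LV-NC. The H/R-LV-BMAL1 libraries lay below those of both other groups, and edgeR with TMM over the 1682 miRNAs called neither difference. DESeq2 called it lower in both comparisons (adjusted p = 0.00528 over LV-NC), edgeR with total UMIs did so over LV-NC (adjusted p = 0.0228), and edgeR with TMM did so over H/R-LV-NC among miRNAs with a mean of at least 50 UMIs.

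The second comparison, H/R-LV-NC over LV-NC, shows the members under H/R without the BMAL1 vector. With edgeR and TMM no member was called (0 higher and 0 lower), where 0.0% of all tested miRNAs were called in either direction, and the smallest adjusted p of a member was 0.645. DESeq2 also called 0 members, where 0.119% of all tested were called higher and 0.0% lower, with a smallest adjusted p of 0.194, and limma-voom called 0 members, where 0.0% were called either way, with a smallest adjusted p of 0.843. At an unadjusted p under 0.05, 15 members were higher, beside 5.11% of all tested, and 1 was lower, beside 2.08%. The 3 highest members with a mean of at least 50 UMIs were miR-6956-5p at 3.59 ± 1.20, miR-7035-5p at 3.29 ± 1.09 and miR-6952-5p at 3.17 ± 1.15 on the log2 scale, and each of them had 70.2% to 78.0% of its CPM in replicate 2 of H/R-LV-NC. The 3 lowest were miR-6977-5p (-1.82), miR-7050-5p (-0.92) and miR-7071-5p (-0.87). miR-7071-5p, in an intron of Heatr3, had 19.8, 61.5 and 45.8 CPM in H/R-LV-NC, against 109, 85.9 and 38.3 in LV-NC, which overlap.

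As a group the members lay a little below all tested miRNAs, themselves included, in both comparisons of H/R-LV-BMAL1, and a little above in H/R-LV-NC over LV-NC. In H/R-LV-BMAL1 over H/R-LV-NC their median log2 fold change was -0.32 with TMM, beside -0.04 over all miRNAs tested. Below 0 were 121 of 191 members, beside 869 of 1682 over all tested. In H/R-LV-NC over LV-NC the median was 0.15, beside 0.01, with 116 above 0, beside 849 of 1682. In H/R-LV-BMAL1 over LV-NC the median was -0.08, beside 0.02, with 103 below 0, beside 819 of 1682. Single libraries weighed on these medians: without H/R-LV-NC replicate 2 the first was -0.15 and that of H/R-LV-NC over LV-NC 0.10, and for H/R-LV-BMAL1 over LV-NC it was -0.27 without H/R-LV-BMAL1 replicate 1, -0.053 without H/R-LV-BMAL1 replicate 3 and -0.021 without LV-NC replicate 2. The rarer miRNAs outside the numbered hairpins (under 100 CPM, 1052 tested) had medians of -0.10, 0.08 and -0.02 in the first, the second and the third comparison, while those of 100 CPM or more (247) had 0.79, -0.24 and 0.54. With TMM, the members' medians had the signs of the rarer miRNAs and not those of the abundant ones. With total UMIs the first comparison had medians of -1.16 for the members, -0.94 for the rarer and -0.06 for the more abundant miRNAs. The 162 tested members with the acceptor end alone had a median of -0.32 in the first comparison and the 14 whole-intron members one of -0.19, with no difference tested.

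The number of members called changed with the scaling, as it did with other settings. TMM factors were 0.940, 0.737 and 0.558 in H/R-LV-BMAL1, 1.05, 1.72 and 1.26 in H/R-LV-NC, against 1.03, 1.04 and 1.07 in LV-NC. With total UMIs in their place, the median of all tested miRNAs shifted by -0.83, 0.36 and -0.49 in the first, the second and the third comparison. Relative to the median of all tested, the members were at -0.28 with either scaling in the first comparison, at 0.15 with TMM and 0.14 with total UMIs in the second, and at -0.11 and -0.08 in the third.
With total UMIs the first comparison had 62 members called lower, where 28.6% of all tested miRNAs were called lower, and 0 higher, where 2.26% were. The members' 32.5% was near that background. The third had 9 members lower (4.58% of all tested) and 1 higher (1.66%), which was miR-7021-5p, and the second had 0 lower (0.0%) and 0 higher (0.0595%). miR-6898-5p was among those called lower with total UMIs in the first comparison, at -0.85 (edgeR's adjusted p = 0.0224), against 0.11 with TMM, so that its direction turned with the scaling. In the third it was called lower at -1.24 (adjusted p = 0.0155), against -0.61 with TMM (0.333). The 2 members called with TMM stayed above 0 with total UMIs in the first comparison, at 0.89 for miR-7021-5p and 0.80 for miR-6945-5p, and were not called (adjusted p = 0.0868 and 0.180, edgeR).

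The members' counts under the other tools stood at or below the shares over all tested miRNAs in some cases and above them in others. DESeq2 called 5 members higher (9.99% of all tested) and 9 lower (4.76%) in the first comparison, and 3 higher (5.53%) and 6 lower (3.15%) in the third. limma-voom called 2 higher (2.97%) and 2 lower (0.476%) in the first, and 2 higher (0.238%) and 0 lower (0.0595%) in the third. Among the 703 miRNAs with a mean of at least 50 UMIs, 68 of them members, edgeR with TMM called 2 members higher (6.12%) and 3 lower (4.13%) in the first, and 2 higher (0.996%) and 0 lower (0.427%) in the third. The 3 lower were miR-6907-5p, miR-7018-5p and miR-7058-5p, named after their values were seen.

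**Figure D4:**
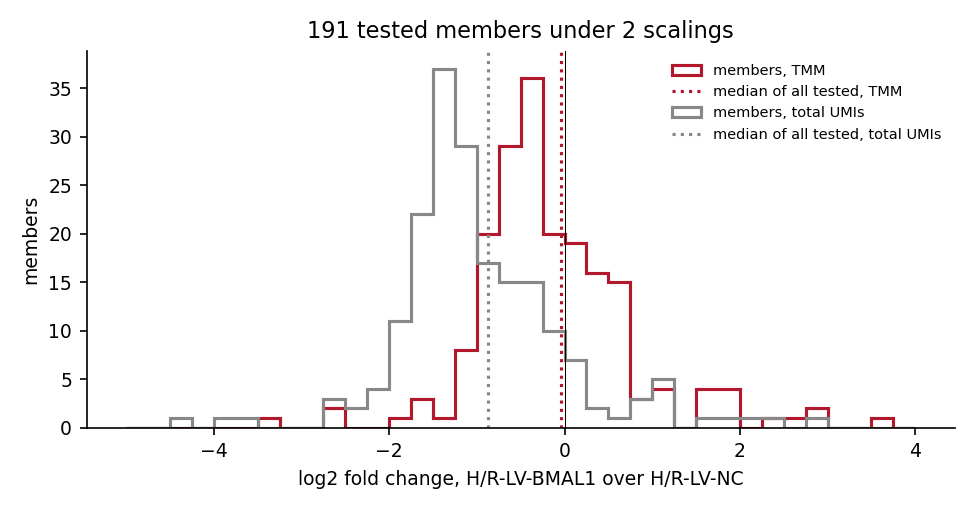
Log2 fold changes of the 191 tested members in H/R-LV-BMAL1 over H/R-LV-NC (bins of 0.25), with TMM in red and total UMIs in grey; dotted lines mark the medians of all 1682 miRNAs tested, -0.04 and -0.87. The member medians, -0.32 and -1.16, lie to the left of the dotted line in both cases.

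The largest fitted changes came from miRNAs that were high in 1 library. In 13 of the 191 tested members (6.81%), a single library held at least 50% of the CPM summed over the 9, beside 4.04% of all tested miRNAs (68 of 1682). These were chosen by their values and are given as a description. Of the 13, 9 peaked in H/R-LV-BMAL1 replicate 1, 3 in H/R-LV-NC replicate 2 and 1 in LV-NC replicate 3. Over all tested miRNAs, members included, the same libraries held 42, 5 and 9 of the 68, so such peaks also lay outside the members.
miR-7024-5p was the most extreme, at chr5:33898946-33898966 in a 102-nt intron of Nelfa, a subunit gene of the negative elongation factor. It had 6977, 60 and 58 UMIs in H/R-LV-BMAL1, 50, 75 and 196 in H/R-LV-NC, against 50, 31 and 27 in LV-NC. One library thus held more UMIs of this miRNA than the other 8 together. Its log2 fold change in H/R-LV-BMAL1 over H/R-LV-NC was 3.51 ± 1.40 (edgeR's adjusted p = 0.136), and -1.46 when that library was left out. Over LV-NC it was 4.47 ± 1.48 (adjusted p = 0.124), and -0.51 without it.

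Others peaked in the same library. miR-6926-5p, in an intron of the Rab GTPase-activating gene Sgsm2, had 1196, 38 and 37 UMIs in H/R-LV-BMAL1, 32, 31 and 24 in H/R-LV-NC, against 17, 23 and 20 in LV-NC. Its log2 fold change over H/R-LV-NC was 2.82 ± 1.04 (edgeR's adjusted p = 0.116), and -0.34 without replicate 1. miR-6963-5p, in an intron of the integrin gene Itga5, had 1639, 86 and 51 UMIs in H/R-LV-BMAL1, 29, 51 and 77 in H/R-LV-NC, against 18, 23 and 30 in LV-NC. Scaled by TMM, miR-6926-5p was at 14.3 and 16.4 CPM in replicates 2 and 3 of H/R-LV-BMAL1, within the 13.2 to 22.7 CPM of H/R-LV-NC, and miR-6963-5p was at 32.4 and 22.5 CPM, within its 20.6 to 42.5 CPM of H/R-LV-NC.
The remaining 6 were miR-7050-5p, miR-6947-5p, miR-7051-5p, miR-6959-5p, miR-7012-5p and miR-6984-5p, with 668 to 2969 UMIs in replicate 1 of H/R-LV-BMAL1. miR-7050-5p, in an intron of Fxyd5, was also raised in LV-NC replicate 2, with 169 UMIs there against 40 and 26 in the other LV-NC libraries. Its fitted change in H/R-LV-BMAL1 over H/R-LV-NC was 2.76 ± 1.19, and -0.40 without replicate 1.

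In H/R-LV-NC replicate 2, the shallowest library, 3 members stood out. miR-6952-5p, in an 82-nt intron of the polarity gene Scrib, had 41, 35 and 18 UMIs in H/R-LV-BMAL1, 18, 461 and 14 in H/R-LV-NC, against 11, 18 and 13 in LV-NC. miR-6956-5p, in a 77-nt intron of Triobp, an actin-bundling protein gene, had 56, 52 and 72 UMIs in H/R-LV-BMAL1, 17, 515 and 20 in H/R-LV-NC, against 5, 19 and 11 in LV-NC. miR-7035-5p, in an intron of the Ras GTPase-activating gene Rasa4, had 218, 67 and 32 UMIs in H/R-LV-BMAL1, 27, 781 and 86 in H/R-LV-NC, against 26, 26 and 16 in LV-NC.
These 3 had the lowest fitted values in H/R-LV-BMAL1 over H/R-LV-NC, of -3.36, -2.51 and -2.53, with edgeR's adjusted p of 0.0984, 0.168 and 0.146. Without that library the values were 0.15, 0.96 and 0.08. In LV-NC replicate 3, miR-6977-5p (an intron of the receptor phosphatase gene Ptprs) had 643 UMIs, against 97 and 35 in the other LV-NC libraries. It had 138, 90 and 68 UMIs in H/R-LV-BMAL1 and 79, 149 and 41 in H/R-LV-NC.

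In 10 of the 13 the hairpin ended at the acceptor, beside 166 of the other 178 tested members, and GGG was in 83.3% of those matched, beside 74.4%. In 0 of the 13 did the 3p arm of the same hairpin also take at least 50% of its CPM from that library. Such peaks were rare among the members' 3p arms, so this count alone does not set the 13 apart. Only miR-7015-3p, miR-7022-3p, miR-7033-3p, miR-7062-3p and miR-7066-3p reached 50% in 1 library, each in H/R-LV-BMAL1 replicate 1. miR-7024-3p, for example, had 66, 62 and 60 UMIs in H/R-LV-BMAL1, 35, 56 and 147 in H/R-LV-NC, against 43, 24 and 41 in LV-NC. The 13 together made 0.593% of all UMIs in H/R-LV-BMAL1 replicate 1 and 0.317% in H/R-LV-NC replicate 2, against 0.0192% to 0.0902% in the other 7 libraries.

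**Figure D5:**
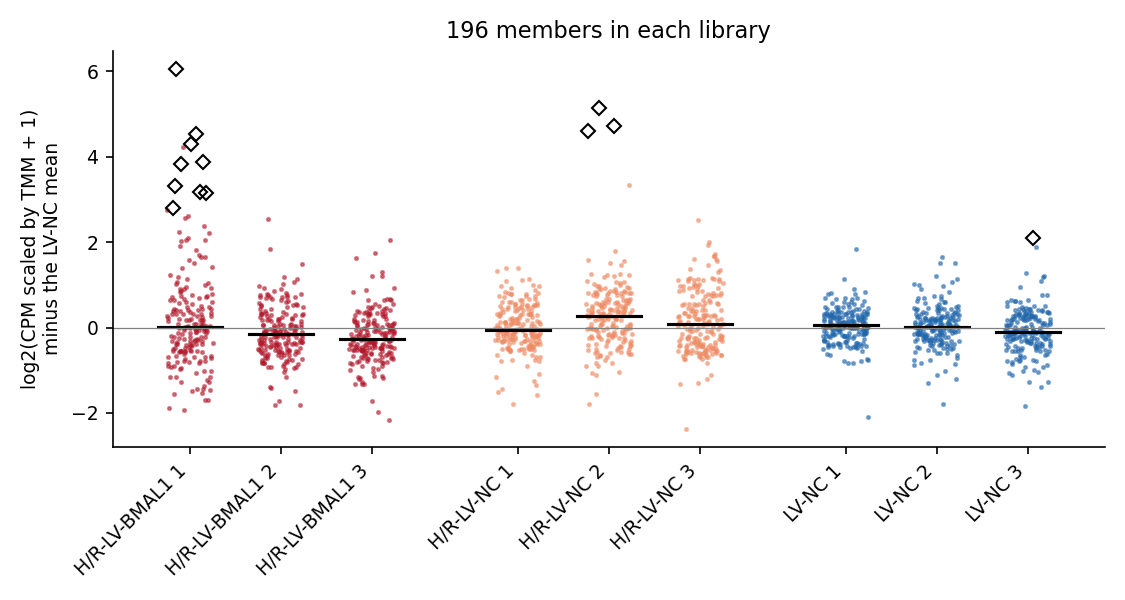
Each of the 196 members in each library as log2(CPM scaled by TMM + 1) minus its mean in LV-NC; bars are medians and open diamonds mark the 13 members in the library that holds at least 50% of their CPM. Most diamonds stand in H/R-LV-BMAL1 replicate 1 (9) and H/R-LV-NC replicate 2 (3), while the medians of the 9 libraries stay between -0.27 and 0.27.

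Over the members as a whole, 20 were more than 4-fold above their LV-NC mean in H/R-LV-BMAL1 replicate 1, against 1 in each of the other libraries of that group. The counts were 0, 4 and 1 in H/R-LV-NC, against 0, 0 and 1 in LV-NC. The same counts over all miRNAs are not given here, so no trait of the members can be read from them. Over all miRNAs tested, H/R-LV-BMAL1 replicate 1 also deviated most from its group mean (SD of 0.74, against 0.42 to 0.54 in the other libraries).

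The 2 arms of a hairpin were about equally abundant over the set, with the 5p arm higher in 96 of 196 hairpins and the 3p arm in 100, and a median log2 ratio of 5p to 3p of -0.02. Single hairpins were far from even. miR-6898-5p exceeded its 3p arm by 8.76 on the log2 scale (4808 against 10.1 CPM) and miR-7008-5p by 4.57 (329 against 12.9 CPM). At the other end, the log2 ratio of 5p to 3p was -4.85 for miR-6896-5p (8.80 against 282 CPM) and -4.55 for miR-7062-5p (19.1 against 468 CPM), ratios taken after adding 1 CPM. The ratio of miR-7062 rested on 1 library: its 3p arm had 4085 CPM in H/R-LV-BMAL1 replicate 1 and 7.93 to 22.7 CPM in the other 8, and without that library the log2 ratio was 0.25 (19.7 against 16.4 CPM), a value chosen after seeing the data. Of the 3p arms, 192 were tested and edgeR with TMM called 0 in any comparison. In the first, 13 were higher and 29 lower at an unadjusted p under 0.05, beside 14.3% and 13.6% of all tested miRNAs. DESeq2 called 8 higher and 11 lower there, beside 9.99% and 4.76%, and limma-voom called 0, beside 2.97% and 0.476%. With total UMIs edgeR called 1 higher and 66 lower in the first, beside 2.26% and 28.6%, and 0 higher and 3 lower in the third, beside 1.66% and 4.58%. With TMM the 3p arms had medians of -0.14, 0.05 and -0.11 in the first, the second and the third comparison. The 2 arms of a hairpin had fold changes of the same sign in 93, 96 and 88 of 186 hairpins with both arms tested. Across these hairpins, which share libraries and scaling and are not independent replicates, Pearson's r was -0.06, -0.05 and -0.11.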

How the data were processed

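For 9 exosomal small RNA libraries, 3 in each of 3 groups, the table deposited by the authors lists UMI counts and CPM of 1978 mature miRNAs. The deposited CPM are each UMI count scaled to the library's total, and they were used here to check the counts. A UMI is a random tag that lets PCR copies of 1 molecule be counted once. Tools named in the submitters' processing notes are Bowtie 1.3.0, cutadapt 2.7 and edgeR. The miRNA release and the handling of reads that match several miRNAs are not given in the sources used here.

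Counts were fitted with edgeR 4.0.16 (limma 3.58.1, R 4.3.3): filterByExpr kept 1682 miRNAs, TMM gave the scaling, and the 9 libraries entered 1 quasi-likelihood fit with a mean per group. p-values were adjusted by Benjamini-Hochberg over the 1682 and called under 0.05. The 3 comparisons share groups. Alternatives were total UMIs, RLE and upper-quartile scaling, DESeq2 1.42.0, limma-voom, a replicate block, a fit to the 2 groups compared alone, no filter, a minimum mean of 50 UMIs, and leaving out each library. The fit was tested on simulated counts.

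Members, lists and tests were chosen with earlier results of these data known. Named members were the 10 most abundant, those called, the 3 highest and 3 lowest fold changes per comparison at a mean of at least 50 UMIs, the 5 most concentrated in 1 library and those sharing a seed; the text also names the other single-library members, the 5 untested members, miR-6901-5p, miR-7025-5p and the extremes of arm ratio and intron length, chosen after their values were seen. Introns come from GENCODE M21 and sequences from RefSeq GRCm38.p6, whose positions equal the deposited ones for the 172 members matched. Figures were drawn with Python 3.11.15 and matplotlib 3.10.9.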

Additional observations from a re-analysis of the deposited data

How the results depend on the processing

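In H/R-LV-BMAL1 over H/R-LV-NC, the 2 members called higher became 0 with total UMIs, RLE, upper quartiles, no filter or only the 2 groups compared, and 5 with DESeq2 (9.99% of all tested were higher). The 0 called lower became 62 with total UMIs, 9 with DESeq2, 2 with limma-voom and 3 at a mean of 50 UMIs or more, beside 28.6%, 4.76%, 0.476% and 4.13% of all tested. In H/R-LV-BMAL1 over LV-NC, the 2 called higher became 1 with total UMIs, upper quartiles or no filter and 0 with only the 2 groups, and the 0 called lower became 9 with total UMIs and 6 with DESeq2, beside 4.58% and 3.15%. H/R-LV-NC over LV-NC kept 0 members called under all 18 alternatives. The cause was not tested. By design, no filter tests more miRNAs and the fit to 2 groups uses fewer libraries. Over all miRNAs, the 36 higher and 4 lower of the first comparison became 168 and 80 with DESeq2, 38 and 481 with total UMIs, 50 and 8 with limma-voom, 43 and 29 at 50 UMIs or more on average, 127 and 12 without H/R-LV-BMAL1 replicate 1, and 0 and 0 under the other 13 alternatives (RLE, upper quartiles, no filter, the 2 groups alone, the replicate block and each of the other 8 libraries left out). In the third, the 3 and 1 became 93 and 53 with DESeq2, 28 and 77 with total UMIs and 60 and 6 without H/R-LV-BMAL1 replicate 1.

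Leaving out 1 library gave 0 to 2 members higher and 0 to 3 lower in the first comparison, and 0 to 2 higher and 0 to 1 lower in the third. Without H/R-LV-BMAL1 replicate 1 the first had 2 higher and 3 lower. Median log2 fold changes ran from -0.43 to -0.15, 0.10 to 0.22 and -0.27 to -0.021 in the first, the second and the third comparison. They were -1.16, 0.50 and -0.55 with total UMIs, and the second was 0.29 with a mean of at least 50 UMIs. Without the 10 most abundant miRNAs in the total, the members' share was 2.23%, 3.79% and 3.69% in H/R-LV-BMAL1, H/R-LV-NC and LV-NC. Leaving out 1 library it was 0.705% to 1.11% in H/R-LV-BMAL1, 1.27% to 1.77% in H/R-LV-NC, against 1.39% to 1.395% in LV-NC (n = 2 each).

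Leaving out 1 library also turned the direction of uncalled members. In H/R-LV-BMAL1 over H/R-LV-NC, miR-6952-5p ran from -3.91 to 0.15, miR-7035-5p from -3.41 to 0.080, miR-6956-5p from -3.05 to 0.96, miR-7050-5p from -0.40 to 3.33, miR-6926-5p from -0.34 to 3.38 and miR-7024-5p from -1.46 to 4.10. In H/R-LV-NC over LV-NC, miR-7050-5p ran from -1.38 to 0.39 and miR-6952-5p from -0.34 to 3.72. In H/R-LV-BMAL1 over LV-NC, miR-6926-5p ran from -0.29 to 3.42 and miR-7024-5p from -0.51 to 5.05.

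Replicate numbers gave no sign of pairing. Deviations from the group means had correlations of -0.16 to 0.13 between same-numbered libraries, beside -0.20 to 0.21 between those of different numbers. With 3 libraries in a group this check cannot exclude a shared batch. With the replicate block, 0 members were called higher in the first comparison and 1 in the third.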

Other observations

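Mature members were of 151 distinct seeds among the 172 matched. Of these, 18 seeds were shared by 39 members, none of them with any of the 20 most abundant miRNAs, and 0 pairs of members differed by at most 1 base. The seed GUGGGAG belonged to miR-7008-5p, miR-6922-5p and miR-6993-5p, which averaged 329, 10.9 and 12.1 CPM. GGGCUGA belonged to miR-7079-5p, miR-6911-5p and miR-7028-5p (49.5, 23.1 and 20.4 CPM), and GGGGAGG to miR-7030-5p, miR-7075-5p and miR-7076-5p (29.4, 29.3 and 8.08 CPM). In H/R-LV-BMAL1 over H/R-LV-NC the log2 fold changes of the GGGCUGA members were 0.60 for miR-7079-5p, 1.13 for miR-6911-5p and -0.59 for miR-7028-5p, with different signs. Under the seed UGGGGGA, miR-7024-5p had 3.51, resting on 1 library as described above, and miR-6941-5p had -1.03.

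Mouse mirtrons known by other names (both arms of miR-877, miR-1224 and miR-702) were 6 of 6 tested and 0 were called in any comparison by edgeR with TMM, DESeq2 or limma-voom, whereas edgeR with total UMIs called 2 lower in H/R-LV-BMAL1 over H/R-LV-NC, beside 28.6% of all tested miRNAs. At an unadjusted p under 0.05 in edgeR, 1 was lower in H/R-LV-BMAL1 over LV-NC and 0 passed in the other comparisons. miR-877-3p was the highest of these, with 356, 444 and 450 CPM scaled by TMM in H/R-LV-BMAL1, 342, 230 and 314 in H/R-LV-NC, against 505, 377 and 439 in LV-NC. On that scale the H/R-LV-NC libraries lay below those of both other groups, which overlapped with each other. The log2 fold change of H/R-LV-BMAL1 over H/R-LV-NC was 0.50 with TMM (edgeR's adjusted p = 0.271). As a share of each library's total UMIs the order turned, with every H/R-LV-BMAL1 library below every H/R-LV-NC library.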
